A study of Mus musculus with 4 samples.

Results

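The beta-globin locus of the mouse holds 5 genes that code for beta-like globin chains, Hbb-bt, Hbb-bs, Hbb-bh2, Hbb-bh1 and Hbb-y, out of 21951 protein-coding genes in the GENCODE M21 annotation of GRCm38. They were chosen by name. All peaks from 100 kb beyond the end of Hbb-bt to 100 kb beyond the start of Hbb-y were also examined (chromosome 7, 103712524 to 103953216). The data are 4 PRO-seq libraries of mouse embryos at E14.5 (embryonic day), 2 of liver and 2 of yolk sac. PRO-seq maps RNA polymerases engaged in transcription by a nuclear run-on. Each library came from tissue pooled from 6 embryos of a strain background labelled as mixed C57BL/6h and CAST/EiJ, and both tissues share this cross. The mothers were C57BL/6J. The fathers had a mixed background, with CAST/EiJ alleles at Dlk1/Gtl2 on chromosome 12, and the labels do not give their alleles at the beta-globin locus. Each deposited list holds dREG peaks, which are intervals classed as sites of transcription initiation at promoters and enhancers, with a score that has no unit.

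The adult beta-globin chains pair with alpha-globin chains and heme to form the haemoglobin of definitive red cells, which the fetal liver makes in large numbers. Hbb-y and Hbb-bh1 are the embryonic genes, known from the primitive red cells that arise in the yolk sac blood islands and then circulate. Hbb-bh2 is a further beta-like gene of the cluster. The genes are transcribed from 1 strand and share a locus control region, a group of enhancers upstream of Hbb-y, which is bound by the erythroid factors Gata1, Tal1, Klf1 and NF-E2. The CACCC box (bound by Klf1), the CCAAT box and a TATA-like box are the classical promoter elements of beta-globin genes.

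The RefSeq table of promoters (GRCm38.p6) had entries for 4 of the 5 genes, with none for Hbb-bh1. The 130 bases before the RefSeq start are shown because promoter peaks were found at some of these genes and not at others. All lie on the minus strand and are written 5′ to 3′. Capitals mark CACCC or CCACACCC, CCAAT, and ATAAAA or ATATAA on the strand of the gene.
Hbb-bt, chr7:103813924-103814053: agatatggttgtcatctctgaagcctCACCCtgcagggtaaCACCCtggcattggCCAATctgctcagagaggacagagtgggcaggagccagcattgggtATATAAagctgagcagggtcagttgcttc
Hbb-bs, chr7:103827929-103828058: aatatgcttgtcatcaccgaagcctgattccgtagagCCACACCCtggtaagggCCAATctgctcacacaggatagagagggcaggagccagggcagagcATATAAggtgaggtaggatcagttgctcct
Hbb-bh2, chr7:103840522-103840651: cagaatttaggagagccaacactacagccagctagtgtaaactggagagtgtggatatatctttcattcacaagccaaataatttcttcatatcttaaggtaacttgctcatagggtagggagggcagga
Hbb-y, chr7:103853208-103853337: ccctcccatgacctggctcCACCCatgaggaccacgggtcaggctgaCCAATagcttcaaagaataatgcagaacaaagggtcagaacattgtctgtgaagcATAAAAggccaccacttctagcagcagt

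The same 3 kinds of element stood in the same order in Hbb-bt, Hbb-bs and Hbb-y. Counting backwards from the base before the start as -1, the CCAAT box on the strand of the gene began at -75 in Hbb-bt, -76 in Hbb-bs and -83 in Hbb-y. The TATA-like box began at -29, -30 and -28. Of the 4 promoters, Hbb-bs alone held the longer CCACACCC, from -93. Hbb-bh2 had none of these letters, although it held the GATA motif AGATAA at -167, as Hbb-bs did at -210. Hbb-y held a second GATA motif, TGATAA, on the opposite strand, from -162. On both strands, 3.56% of all 32851 RefSeq promoters of the same length (300 bases) held CCACACCC, 37.4% CCAAT, 18.5% ATAAAA, 9.82% ATATAA, 11.2% AGATAA and 9.05% TGATAA. The shorter CACCC, contained in CCACACCC, occurred in 57.5% of them. The E box CAGNTG, present in Hbb-bt at -10 and in Hbb-bs at -11, occurred in 51.4%. None of the 4 promoters held the full NF-E2 motif, found in 0.155% of promoters, or the CTCF core motif, found in 0.0365%. The upstream 250 bases of Hbb-bt and Hbb-bs were 69.3% identical, and those of either adult gene and Hbb-y 50.7%.

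The liver lists had peaks across the locus and the yolk sac lists had none. Liver replicate 1 held 16 peaks, liver replicate 2 held 11, and both yolk sac replicates held 0. Liver thus averaged 13.5 ± 3.54 peaks (SD, n = 2), against 0 ± 0 (n = 2) for the yolk sac, and the tissues did not overlap. The peaks covered 22482 and 19722 bp in the liver lists, with mean widths of 1405 and 1793 bp. With 2 libraries against 2, the exact two-sided permutation test cannot give a p below 0.333, and it gave 0.333 for each difference between tissues tested here. Differences are therefore set against the spread between replicates. Nothing in the labels says that replicates came from separate litters, so that spread may be technical. In tissue samples such as these, fewer cells of a type and less transcription per cell cannot be told apart.

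**Figure D1:**
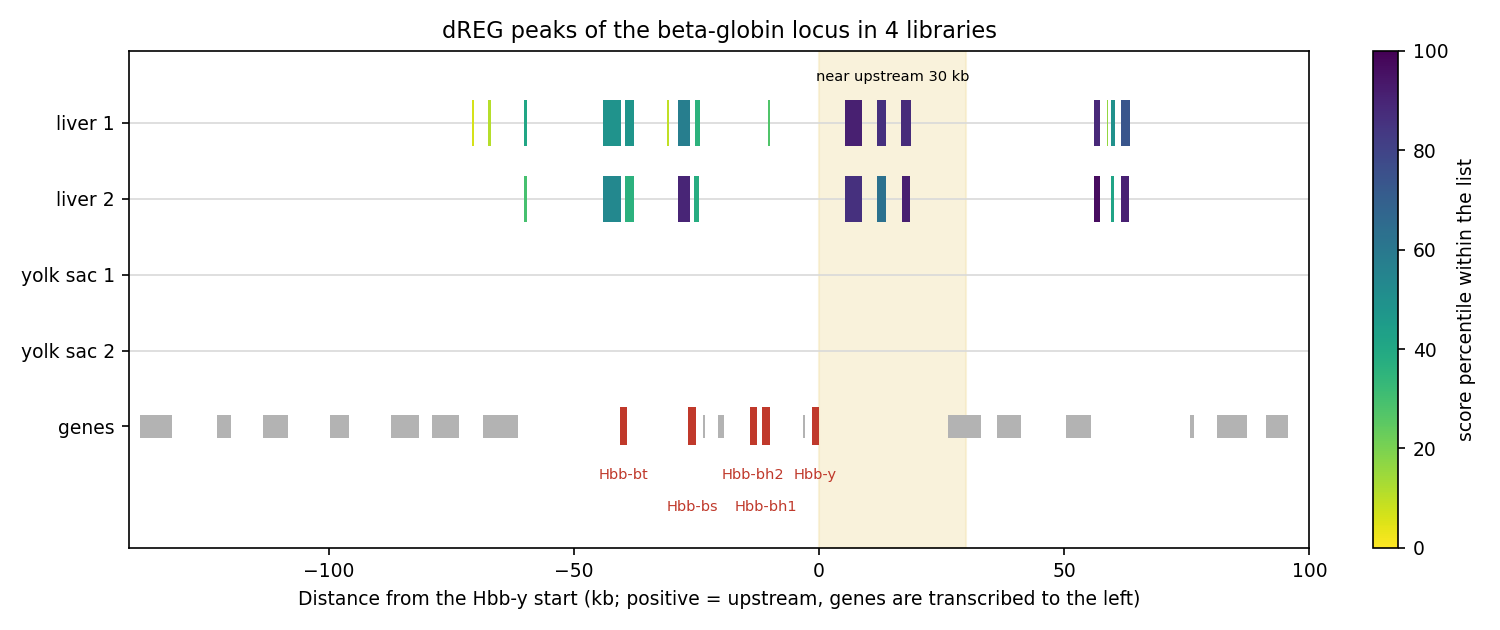
Peaks of the 4 lists over the beta-globin locus, with the distance from the Hbb-y start in kb on the x axis (upstream to the right) and 1 row per library; bars are peaks coloured by score percentile within the list, red boxes are the 5 genes and grey boxes other genes. Liver replicate 1 has 16 peaks and liver replicate 2 has 11, while the yolk sac rows are empty.

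The yolk sac lists, empty at this locus, were the longer ones. The yolk sac lists held 50525 and 43055 peaks in all, and the liver lists 24863 and 24333. The nearest yolk sac peak lay 1053 kb beyond the end of Hbb-bt on one side and 365 kb upstream of Hbb-y on the other. Between them lay 1459 kb with no yolk sac peak. Liver peaks formed 17 separate regions there, 16 of them in the locus, so the rest of the stretch was nearly empty in liver too. With every list reduced to its 24333 highest-scoring peaks, the difference in means remained 13.5 peaks. Shortening a list cannot add a peak, so this setting could not fill the yolk sac rows. Flanks of 200 kb added no peak to any list. The lists contain only peaks with a score of at least 0.80, so initiation scored below that limit was not measured.

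Hbb-bt and Hbb-bs, the adult genes, had a promoter peak in both liver lists and in neither yolk sac list. A promoter peak is a peak that overlaps the 500 bp either side of an annotated start. Over all protein-coding genes, 1.01% showed this pattern. At Hbb-bt (ENSMUSG00000073940.3, 103812524 to 103813996), the peak spanned 103813651 to 103815452 in liver replicate 1, a width of 1802 bp. In replicate 2 it spanned 103813551 to 103815402, a width of 1852 bp. At Hbb-bs (ENSMUSG00000052305.6, 103826534 to 103828096) it ran from 103828001 to 103828852 and from 103827801 to 103828652, 852 bp wide in each. The bases shared by the 2 Hbb-bs peaks were 62.0% of their joint extent, the lowest value among the regions of the locus called in both liver lists.

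The promoter peaks of the adult genes ranked in the lower part of the liver lists. The score percentile is the share of peaks in the same list with an equal or lower score. It was 47.9 and 36.3 at Hbb-bt in liver replicates 1 and 2. At Hbb-bs it was 35.7 and 37.5. All 4 values are below 50, and no member kept a promoter peak in the higher-scoring 50% of either liver list.

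Of the embryonic genes, Hbb-bh1 (ENSMUSG00000052217.6, 103841637 to 103843164) had a promoter peak in liver replicate 1 only. It spanned 103842701 to 103843202, was 502 bp wide and ranked at the 27.6 percentile. This pattern occurred at 0.15% of protein-coding genes, and without liver replicate 1 no embryonic gene had a peak. Hbb-y (ENSMUSG00000052187.4, 103851749 to 103853216) and Hbb-bh2 (ENSMUSG00000078621.2, 103839124 to 103840520) had no promoter peak in any of the 4 lists, as did 34.2% of protein-coding genes. No peak touched the body of either gene. In number, liver replicates 1 and 2 had promoter peaks at 3 and 2 of the 5 members (2.5 ± 0.707, SD, n = 2), and the yolk sac replicates at none. Of all protein-coding genes, liver replicates 1 and 2 called 56.1% and 57.9%, and yolk sac replicates 1 and 2 called 63.8% and 62.4%, so the liver counts were near the background.

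The promoter peaks of the adult genes lay mostly upstream of the annotated start. At Hbb-bt they reached 1456 and 1406 bp upstream of the GENCODE gene start and 345 and 445 bp downstream of it. At Hbb-bs they reached 756 and 556 bp upstream and 95 and 295 bp downstream. Across genes with a peak over their start, the medians in liver replicate 1 were 639 bp upstream and 982 bp downstream (10669 genes), and in replicate 2 they were 574 and 872 bp (10987 genes). The upstream share of the peak was 80.8% and 76.0% at Hbb-bt, and 1.90% and 2.58% of genes in the respective lists had a share as large. At Hbb-bs the shares were 88.8% and 65.3%, reached by 0.797% and 7.64% of genes. The Hbb-bh1 peak in liver replicate 1 was placed the other way, with 38 bp upstream and 463 bp downstream.

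The start used matters for these distances. RefSeq places the start of Hbb-bt 73 bp and that of Hbb-bs 168 bp downstream of the GENCODE gene start. Against the RefSeq start at 103827928, the Hbb-bs peak of liver replicate 1 began 73 bp upstream and did not reach the start, while that of replicate 2 covered it.

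A second peak covered the end of each adult gene in both liver lists. At Hbb-bt it spanned 103809201 to 103812902 in replicate 1 and 103809101 to 103812802 in replicate 2. Each was 3702 bp wide, at the 98.6 and 99.0 percentile of width, and reached 3323 and 3423 bp beyond the annotated gene end. At Hbb-bs it spanned 103824401 to 103826902 and 103824351 to 103826952, with widths of 2502 and 2602 bp, and reached 2133 and 2183 bp beyond the end. These gene-end peaks ranked higher by score than the promoter peak of the same gene in both lists. Their percentiles were 48.8 and 53.4 at Hbb-bt and 57.7 and 89.6 at Hbb-bs. A separate peak over the gene end in both liver lists and no yolk sac list was found at 0.378% of protein-coding genes, and in both liver lists irrespective of yolk sac at 1.73%. Only 3 genes, or 0.0137%, had both this and the liver-only promoter pattern: Hbb-bt, Hbb-bs and Arhgdig on chromosome 17 (26199183 to 26207786). The gene-end peaks were examined after their positions had been seen. No gene-end peak was called at Hbb-bh1, Hbb-bh2 or Hbb-y.

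**Figure D2:**
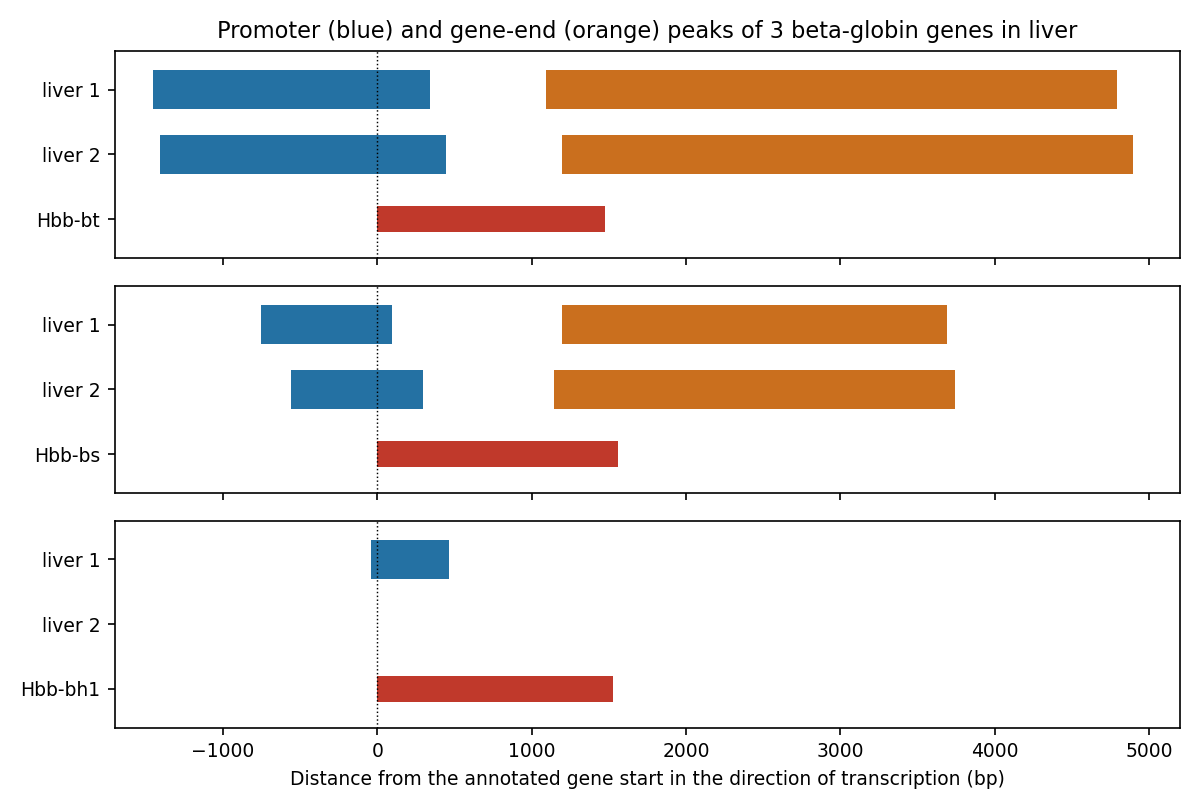
Liver peaks at Hbb-bt, Hbb-bs and Hbb-bh1, by distance from the annotated gene start in bp along the direction of transcription (x axis), 1 row per liver library; blue bars are promoter peaks, orange bars gene-end peaks and red bars the annotated genes. At both adult genes an uncalled stretch of the gene body separates a promoter peak from a wider gene-end peak, and Hbb-bh1 has a peak in replicate 1 only.

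The middle of each adult gene was without a peak. The gap between the promoter and the gene-end peak was 748 and 748 bp at Hbb-bt and 1098 and 848 bp at Hbb-bs. Peaks covered 49.2% and 49.2% of Hbb-bt and 29.8% and 45.7% of Hbb-bs. Hbb-bt and Hbb-bs are nearly identical over their coding part, so that short reads from one can match the other. Their 444 coding bases, taken from the GENCODE transcripts, differ at 1 base, T417C (T in Hbb-bt and C in Hbb-bs, counted from the first base of the start codon). Coding bases 402 to 432 are shown with that base in capitals.
Hbb-bt: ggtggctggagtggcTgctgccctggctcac
Hbb-bs: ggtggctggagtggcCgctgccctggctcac
The coding identity was 99.8%, and the longest run shared by the 2 transcripts was 430 bases. How reads with more than 1 match were placed is not given in the sources used here, and the part of this identity in the gaps was not tested. Calls at the 2 adult genes are thus less certain as to which copy is transcribed. The other members are more distant: the coding identity to Hbb-bs was 74.6% for Hbb-bh1, 74.3% for Hbb-y and 71.4% for Hbb-bh2, with shared runs of at most 22 bases.

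Upstream of Hbb-y, where the locus control region lies, both liver lists had 3 peaks within 30 kb, in intergenic sequence. The yolk sac lists had 0 and 0. The first region, 103858551 to 103862002, began 5.335 kb upstream of the Hbb-y start. It was 3452 and 3352 bp wide in the 2 liver lists and ranked at the 91.1 and 86.1 percentile of score. The second, 103865001 to 103866852, began 11.785 kb upstream, with widths of 1802 and 1852 bp and percentiles of 86.0 and 62.7. The third, 103869951 to 103871952, began 16.735 kb upstream, with widths of 2002 and 1702 bp and percentiles of 87.6 and 91.6. The 3 regions were separated by 2.998 and 3.098 kb. All 3 remained in the higher-scoring 50% of both liver lists, and the count was the same within 20 kb and within 50 kb of Hbb-y.

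In each liver list every one of these 3 peaks ranked above every promoter peak of the members. In replicate 1 the lowest of the 3 was at 86.0 and the highest promoter peak at 47.9. In replicate 2 the values were 62.7 and 37.5. The members' own promoters and these 3 upstream regions were thus in different parts of the same lists.

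A second upstream group lay further out. After 37.348 kb without a region called in both liver lists, across Olfr66, Olfr64 and Olfr65, 3 regions were called in both: 103909301 to 103910552, 103912801 to 103913552 and 103914751 to 103916552. The nearest of them began 56.085 kb upstream of Hbb-y and 0.651 kb past Olfr65. The percentiles of the first were 88.3 and 96.8, the highest of the locus in replicate 2. Those of the second were 49.8 and 41.6, and those of the third 73.5 and 90.9. Another peak in this group, 103911851 to 103912102, was called in replicate 1 only, at the 16.3 percentile.

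On the other side, 1 region beyond the gene-end peak of Hbb-bt was called in both liver lists, at 103793051 to 103793652. It lay 18.872 kb beyond the end of Hbb-bt and 1.23 kb upstream of the start of Olfr67, and ranked at 41.0 and 29.6. The locus also contains 18 genes and pseudogenes that are no members, 13 of them of olfactory receptors. None of the 18 had a promoter peak in any list.

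The part of the cluster that holds the embryonic genes was the emptier one. Between the Hbb-bs promoter region and the first upstream region lay 29.698 kb with Hbb-bh2, Hbb-bh1, Hbb-y and the pseudogenes Hbb-bh3 and Hbb-bh0. The peak at Hbb-bh1 in replicate 1 was the only call there.

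**Figure D3:**
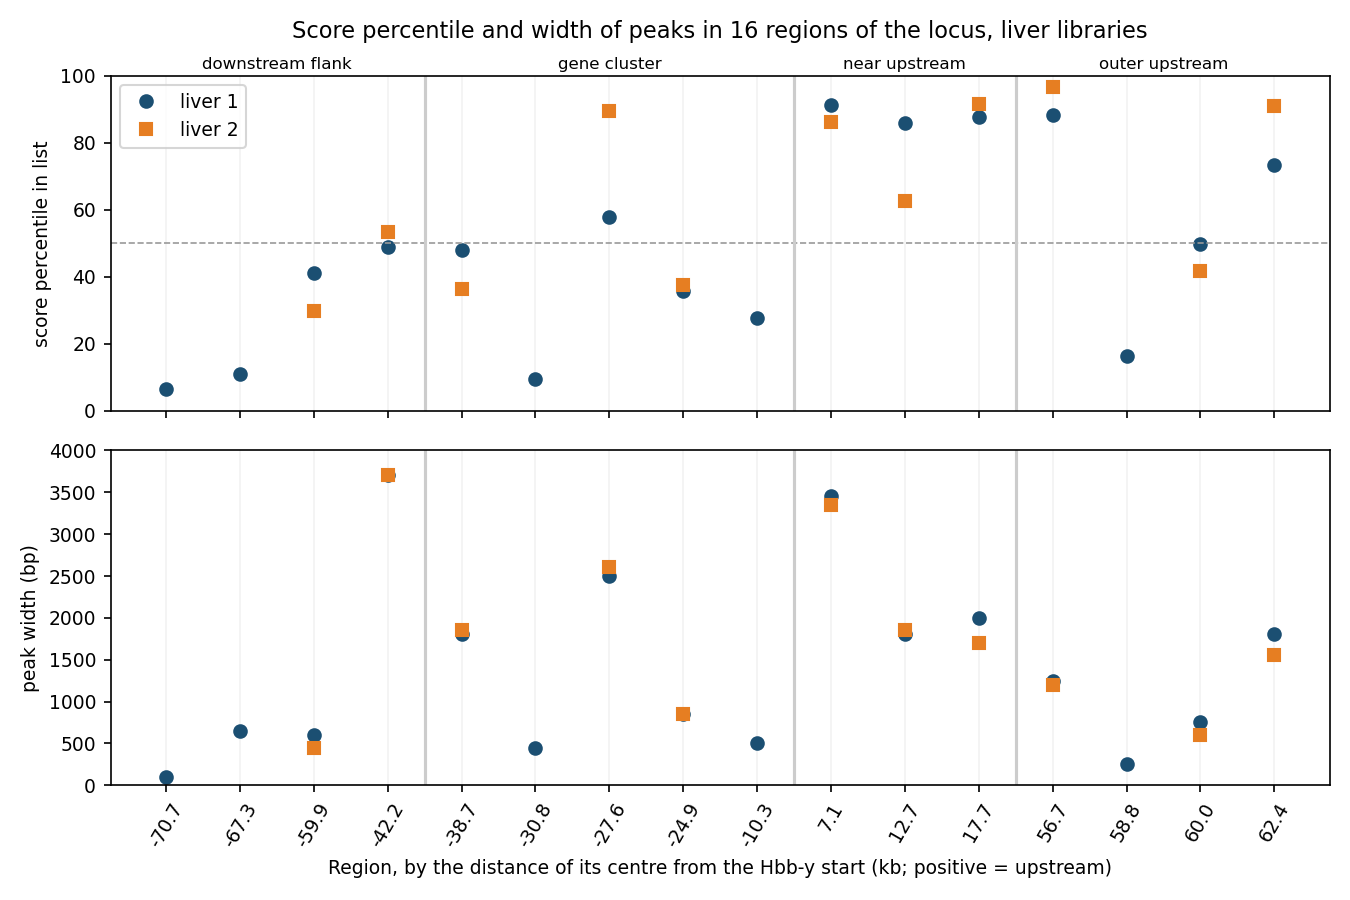
Score percentile within the list (upper panel) and peak width in bp (lower panel) of the peaks in 16 regions, ordered by the distance of their centre from the Hbb-y start in kb, with upstream to the right; circles are liver replicate 1, squares liver replicate 2 and the dashed line is the 50 percentile. The near upstream peaks lie between 62.7 and 91.6, and regions with a circle only were called in replicate 1 only.

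The liver replicates differed in the weaker calls. Of the 16 regions, 11 were called in both liver lists and 5 in replicate 1 only. All 11 were liver-only. Over the genome, 4047 of the 20468 regions called in both liver lists were liver-only. These made up 6.62% of the 61095 merged regions of the 4 lists. The locus had 0 yolk-sac-only regions, a pattern held by 33.0% of merged regions. The 5 others ranked between the 6.43 and 27.6 percentile of replicate 1, below the lowest shared region there, at 35.7. In the locus 68.8% of the regions of replicate 1 were also called in replicate 2, against 84.0% over all regions. Every region of replicate 2 in the locus was called in replicate 1, against 86.5% over all regions. In the 11 shared regions the overlap of the 2 peaks was between 62.0% and 97.3% of their joint extent, with a median of 92.1%.

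The size of the tissue difference was set against the rest of the genome, a measure chosen after the locus counts were seen. Of 6937 grid intervals of the same length (240.693 kb) with at least 1 peak, 5.28% had more peaks in both liver lists than in either yolk sac list, and 65.0% had the reverse. The median difference was -2 peaks, liver minus yolk sac, with quartiles of -5 and -0.5. The grid interval that holds the 5 genes had the largest difference of all, 13.5 peaks. The next, on chromosome 5 around Hectd4, had 12. Of the 174 intervals without a yolk sac peak, the lower of the 2 liver counts had a median of 1, and only the interval with the beta-globin genes reached 11.

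**Figure D4:**
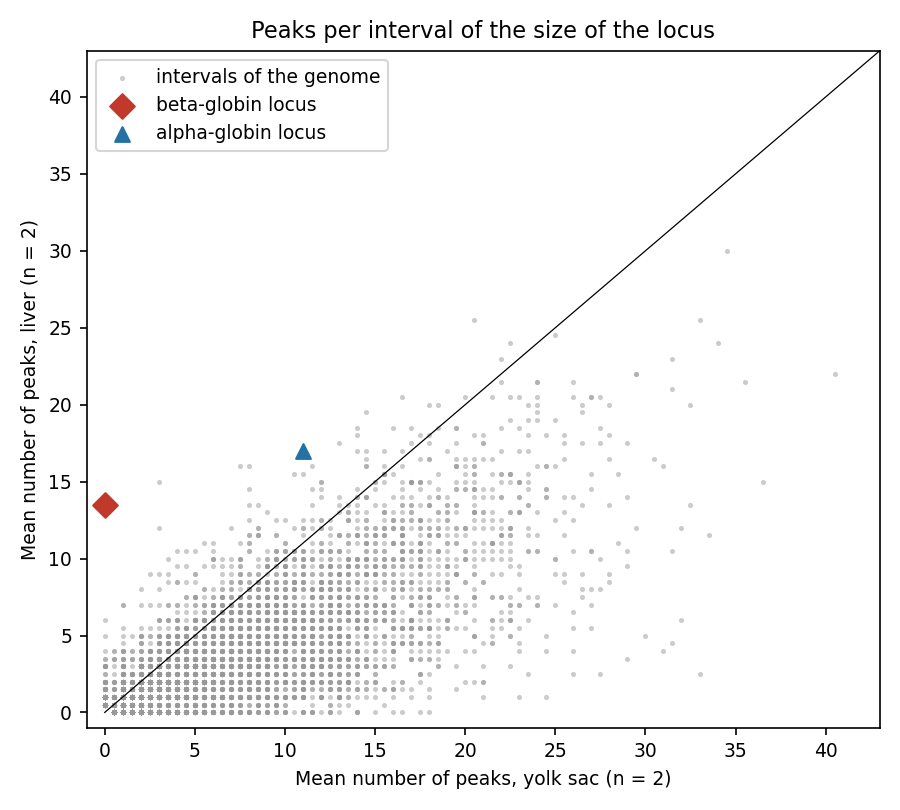
Mean number of peaks in yolk sac (x axis) and liver (y axis), n = 2 libraries each, for 6937 intervals of the length of the locus, with a line where both are equal. The beta-globin locus (diamond) stands on the y axis at 13.5, and the alpha-globin locus (triangle) at 11 in yolk sac and 17 in liver.

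The locus was also set against other stretches without yolk sac peaks, again after the values were seen. Regions called in both liver lists fell into 3064 such stretches, of which 2407 held 1 region. The stretch with the beta-globin genes held 12, of which 11 belonged to the locus as defined here, and the largest number elsewhere was 8. The alpha-globin locus, taken with the same flanks around 5 genes, held 17 peaks in each liver list, and the yolk sac lists had 14 and 8 there. Beta-globin peaks minus alpha-globin peaks came to -1 and -6 in the liver replicates and to -14 and -8 in those of yolk sac. The means differed by 7.5, with an SD of 3.54 between the liver replicates and 4.24 between those of yolk sac. The tissues did not overlap, but the nearest values were -6 in liver and -8 in yolk sac (exact permutation p = 0.333, the smallest possible). None of the 5 alpha-globin genes had a promoter peak in either yolk sac list. The yolk sac peaks there thus lay elsewhere in the interval, and the difference is not one between globin promoters.

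Genes known to act on the locus or with its products were examined from a list of 53, of which 52 were in the annotation and Ahsp was not analysed here. The list was chosen with earlier results of these data known, so its shares are a description and not a test. Of the 52, 8 had a promoter peak in both liver lists and no yolk sac list (15.4%, against 1.01% of protein-coding genes), and none showed the reverse (5.25% of protein-coding genes). A promoter peak in all 4 lists was found at 38 genes, and in no list at 3, patterns held by 53.8% and 34.2% of protein-coding genes. Of the 20 factors that act at the locus, 3 were liver-only: Gata1, Klf1 and Gfi1b, a transcriptional repressor of the erythroid lineage. In liver replicate 2 their peaks ranked at 48.7, 97.8 and 57.8. With a window of 1000 bp the Klf1 call ended, as yolk sac peaks lay within it, and Gata1 was lost in the higher-scoring 50% and with the gene record start. Another 16, among them Tal1, Lmo2, Ldb1 and the NF-E2 subunits Nfe2 and Mafk, had promoter peaks in all 4 lists.

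Of the 11 silencing and switching factors, 10 had a promoter peak in all 4 lists (53.8% of protein-coding genes), including Zbtb7a, Sox6 and Myb. Bcl11a, which represses embryonic globin genes, lacked one in yolk sac replicate 1 and had one at the 42.1 percentile in yolk sac replicate 2. All 5 looping and boundary proteins, such as Ctcf and the cohesin subunit Rad21, had one in all 4 lists. None of the 5 alpha-like chain genes had a promoter peak in either yolk sac list. Hba-a1 and Hbq1b had one in both liver lists, and Hba-a2 and Hba-x in none. The Hba-a1 and Hbq1b calls ended when the window was narrowed to 250 bp. Hbq1b was also lost in the higher-scoring 50% and Hba-a1 with the gene record start, while Hba-a2 became liver-only with a window of 1000 bp. Hba-a1 and Hba-a2 are near-identical copies, and which of them the reads came from is uncertain. Of the 11 heme and red-cell partners, Alas2, the first enzyme of heme synthesis in red cells, Slc4a1, the anion exchanger of the red-cell membrane, and Ermap, an erythroid membrane protein, were liver-only, and 7 were called in all 4 lists. With lists of equal length 12 of the 52 genes were liver-only, the additions being Bcl11a, Myb, Lin28b and Urod. That setting raised the share over all protein-coding genes to 3.01%.

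**Figure D5:**
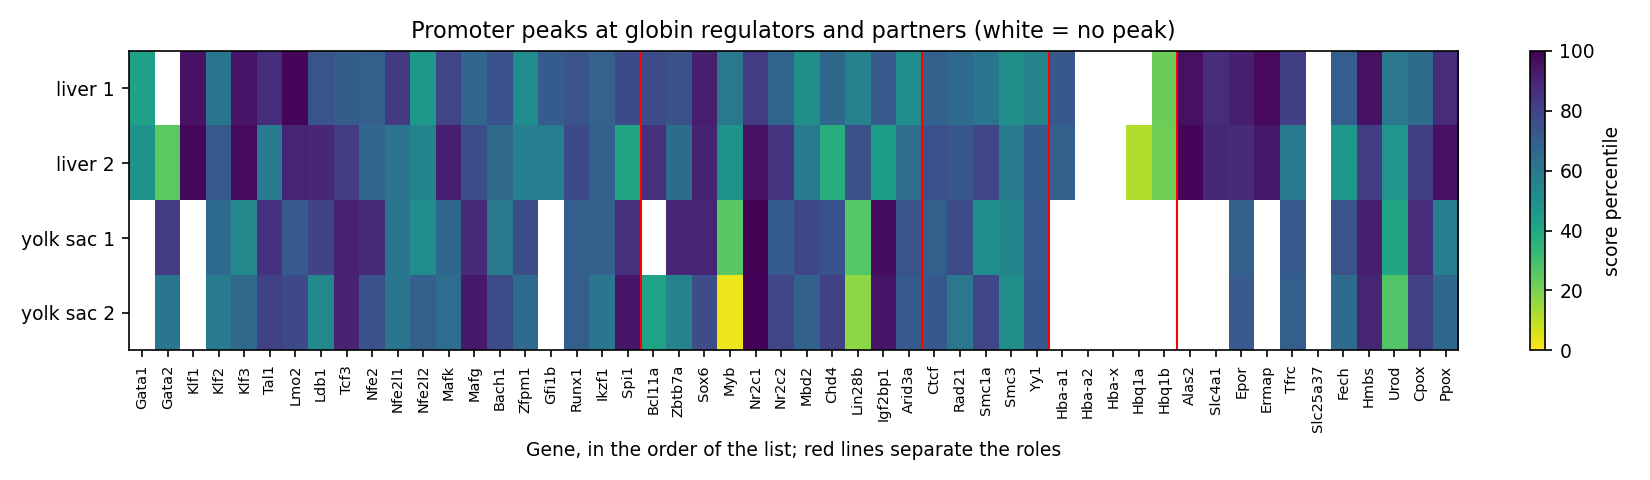
Score percentile of the promoter peak at 52 globin regulators and partners (columns, in 5 roles separated by red lines) in the 4 lists (rows), where white means no peak. Most columns are filled in all rows, and Gata1, Klf1, Gfi1b, Hba-a1, Hbq1b, Alas2, Slc4a1 and Ermap are filled in the liver rows only.

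Marker genes were examined as a check of the labels, against the 56.1% and 57.9% of protein-coding genes called in the liver lists and the 63.8% and 62.4% called in the yolk sac lists. All 5 erythroid genes, which also stand in the list of regulators and partners and repeat its calls, had a promoter peak in each liver list. Each yolk sac list had one at 1 of them, Epor, and at none of Gata1, Klf1, Alas2 and Slc4a1. Of 8 hepatocyte genes, 7 and 6 were called in liver against 6 and 6 in yolk sac. Of 9 visceral endoderm genes, among them Apob, Afp and Ttr from the hepatocyte genes, it was 7 and 5 against 9 and 9. Amn and Cubn were yolk-sac-only, as were 5.25% of protein-coding genes. Of 6 mesenchymal genes it was 4 and 5 against 6 and 6, and of 5 endothelial genes 4 and 5 against 5 and 5. Macrophage genes gave 3 and 3 of 5 against 5 and 3, and megakaryocyte genes 2 and 1 of 4 against 2 and 2. The erythroid calls thus moved with the beta-globin calls, and their part in the difference between tissues was not tested.

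Genes whose promoter calls were most like those of the members were found by the distance between their score percentiles in the 4 lists, with 0 where there was no peak. For Hbb-bt, at 47.9 and 36.3 in liver and 0 in yolk sac, the nearest 3 were C8b, Acot3 and Clstn3, at distances of 2.10, 3.99 and 5.95 percentile points. For Hbb-bs they were Zfhx4, Hist3h2ba and Sgsm1, between 2.97 and 5.21. For Hbb-bh1, called in 1 library, they were Cysltr2, Hormad2 and Srrm4, at 1.31, 2.94 and 3.04. Likeness here is over 4 libraries, and a peak of low rank counts nearly as no peak. Clstn3 had such a peak in yolk sac replicate 1, at 5.08, and Hormad2 in liver replicate 2, at 1.02, where the member had none.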

How the data were processed

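Nascent RNA from isolated chromatin of 2 liver and 2 yolk sac pools was sequenced by PRO-seq, per the labels. The submitters' processing notes name Bowtie2, bedtools and the build mm10 without versions. The dREG version, its settings and the treatment of reads with several matches are not given in the sources used here. The authors deposited 1 list of peaks per library, each peak with a score, which was used here to rank and filter peaks within a list. Other deposited values are peak starts and ends. The lists hold no read counts, so the depth is unknown.

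The positions were checked against GENCODE M21 (GRCm38): 33.5% to 55.8% of the peaks of a list lay at start sites, and 11.1% to 14.6% after a shift of 5 kb. Computations used Python 3.11.15, numpy 2.4.6, pandas 2.3.3 and Biopython 1.88. Peaks were placed in intervals by their midpoint, at promoters by overlap with 500 bp either side of any annotated start, and merged into regions at 1 bp of overlap. Tissues were compared by exact two-sided permutation over the 6 assignments of 4 libraries. Functions were tested on simulated lists. Named were all members, list genes called in both libraries of 1 tissue and none of the other, regions called in both libraries of a tissue, and the 3 genes nearest to each member (predicted genes, Rik clones and olfactory or vomeronasal receptors skipped). Members, lists and tests were chosen with earlier results of these data known. A gene of the red-cell lists is not reported here. CACCC and ATATAA were added after the promoters had been seen. No sequence of the distal regions was used here, so the planned motif search in them was not run.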

Additional observations from a re-analysis of the deposited data

How the results depend on the processing

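A value counted as changed when it moved by more than the replicate spread, a count by more than 1.5 times, and a single call by any amount. Of 120 values under alternatives, 13 changed and 0 reversed. As yolk sac had no peak in the locus, leaving out a yolk sac library could not change the locus values. Nor could the locus differences reverse, so this tally overstates how much was tried. With only the higher-scoring 50% of peaks per list, the peak difference fell to 6.5, the covered length to 14388 bp, the liver-only regions to 6 and the members with a promoter peak to 0, with the calls at Hbb-bt, Hbb-bs and Hbb-bh1 at a difference of 0. The yolk-sac-only count of the regulator list then rose to 1 (Gata2), as it did with the gene record start (1, Sox6). A flank of 50 kb gave 17395 bp. Leaving out 1 library each gave 0 to 1 for the yolk-sac-only count (1, Gata2, without liver replicate 2) and 0 to 1 for the Hbb-bh1 call, which was 0 without liver replicate 1. The liver-only regions then ranged from 11 to 16, and the liver-only list genes from 8 to 9. In lists of equal length they numbered 11 and 12, and the 3 upstream peaks stayed under every alternative. The mean peak width could not be compared, as yolk sac had no peaks. With the replicate number as a block, the differences in peaks (13.5), in upstream peaks (3), in covered length (21102 bp) and in members (2.5) had an exact permutation p of 0.5, the smallest possible with 2 pairs. The labels do not say that a number marks a shared day, and replicate differences of the score percentile were uncorrelated between tissues (r = 0.0027 across 15689 regions, which are not independent). Depth limits are unknown, since no read counts were used here.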
